A study of Mus musculus with 12 samples.

Results

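Interferon-stimulated genes, the transcripts that cells make in response to interferons, were followed in mouse heart after ischemia/reperfusion with and without vitamin B12. They are 39 named genes whose symbols were looked up in the deposited expression table of 55487 genes, and all 39 were found, each once. Hearts came from wild-type mice in 4 groups of 3 libraries. In the I/R+B12 group, mice drank water with vitamin B12 at 50 mg/L for 7 days, at an intake of about 4 mL a day, before the left anterior descending coronary artery was occluded for 45 min and then reperfused for 24 h. The I/R group had the same occlusion and reperfusion on normal water, the Sham+B12 group had B12 water and the operation with no occlusion, and the Sham group had that operation on normal water. Every mouse thus had a thoracotomy under isoflurane. The labels give no strain name, age, sex or sampled part of the heart and do not state whether a library is 1 animal, so p-values measure the spread between these libraries. Expression is in FPKM, the number of sequenced fragments scaled to transcript length and library depth.

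Type I interferons bind the receptor pair Ifnar1 and Ifnar2, whose kinases Jak1 and Tyk2 pass the signal on by phosphorylation. The complex ISGF3, which holds Stat2 and Irf9, then binds the interferon-stimulated response element (ISRE) in target promoters, while the response to interferon gamma runs mainly through the gamma-activated site (GAS). The target genes encode antiviral effectors, sensors of foreign nucleic acid and factors that amplify or dampen the response. In heart muscle after infarction, this program is known from macrophages that take up nucleic acid from dying cells.

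Promoter sequence is given first, since the ISRE is an element that many of these genes are known to share. RefSeq promoter entries (GRCm38.p6, 250 bases before to 50 after a transcript start) matched 29 of the 39 genes. The ISRE was searched as GAAANNGAAA on both strands and the GAS as TTCNNNGAA, which reads the same on both. The ISRE letters were in the entries of 16 of 29 genes (55.2%), against 3.99% of 27025 genes with an entry. The GAS letters were in 7 of 29 (24.1%), against 9.55% of those genes. Both were found for 5 genes and neither for 11, among them Irf7, Oasl2 and Lgals3bp. The other 10 genes are Parp9, Zbp1, Dhx58, Mx2, Ifi27, Oas2, Rtp4, Usp18, Mx1 and Parp14. A match describes letters and not a bound site. The sequences that follow carry the ISRE nearest to and upstream of the start in genes from the main roles. Since the search pattern chose them, their likeness within the capitals is no result. The 8 windows read 5′ to 3′ along the gene with the ISRE letters in capitals, which begin with TTTC where the match lies on the opposite strand.
Isg15 (chr4:156200860-156200899, minus strand): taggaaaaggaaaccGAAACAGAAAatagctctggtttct
Ifit1 (chr19:34640789-34640828, plus strand): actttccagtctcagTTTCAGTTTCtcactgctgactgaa
Oas1a (chr5:120907526-120907554, minus strand): ccttctcgggaaatgGAAACTGAAAatct
Stat2 (chr10:128270261-128270300, plus strand): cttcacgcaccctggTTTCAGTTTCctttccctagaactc
Rsad2 (chr12:26456548-26456587, minus strand): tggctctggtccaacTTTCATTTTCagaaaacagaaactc
Bst2 (chr8:71537572-71537611, minus strand): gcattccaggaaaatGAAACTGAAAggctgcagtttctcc
Gbp7 (chr3:142530268-142530307, plus strand): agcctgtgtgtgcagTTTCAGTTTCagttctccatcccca
Igtp (chr11:58199507-58199546, plus strand): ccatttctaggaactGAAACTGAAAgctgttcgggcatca
In Isg15 the letters occur 3 times, at −78, −72 and −66 bases from the start, each match sharing 4 bases with its neighbour. In Bst2 they occur at −130 and −124, and a GAS match shares 3 bases with the first of these. The first base of the match lies at −222 from the start in Stat2 and, for the nearest one, at −14 in Oas1a. Of the 15 tested genes with ISRE letters, 6 had all I/R libraries above all 9 others, as had 7 of the 13 without them and 8 of the 10 with no entry. Of all tested genes, 4.77% had this.

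**Figure D1:**
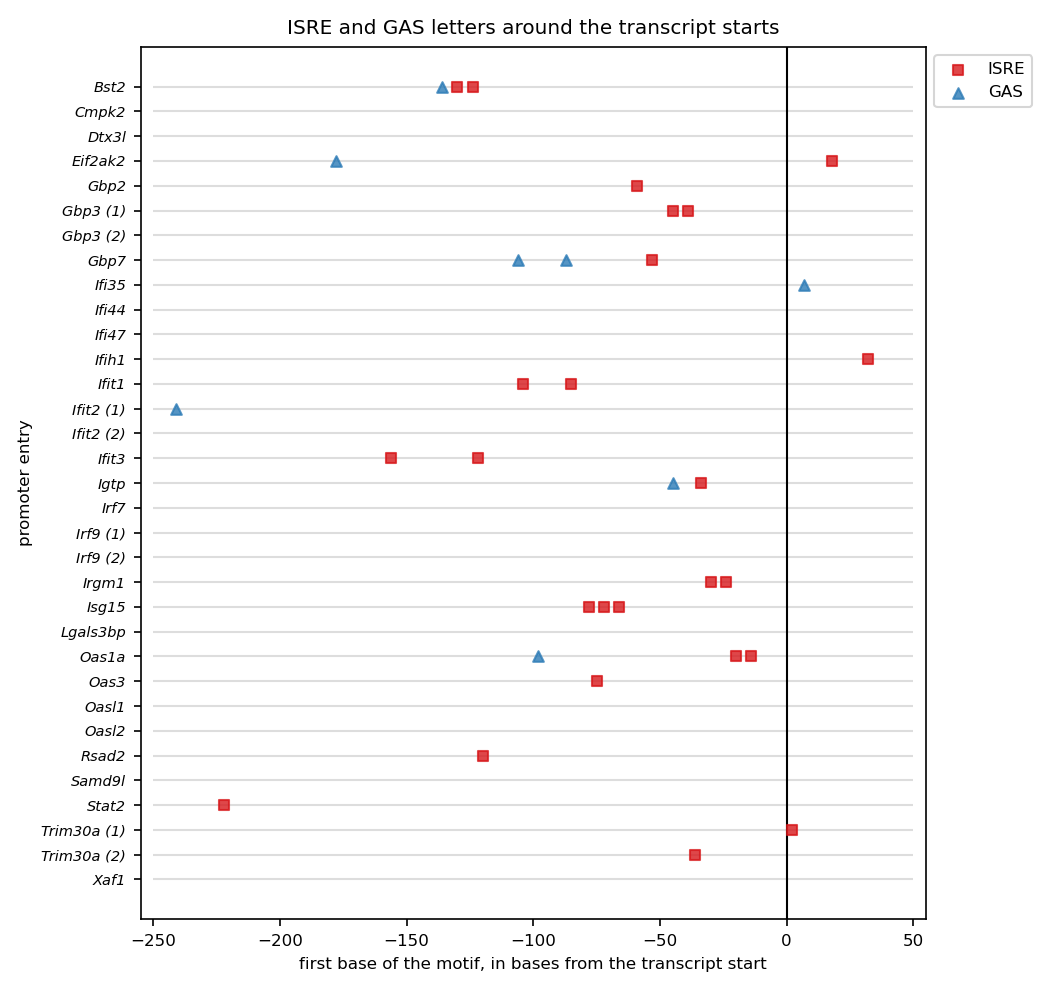
Positions of ISRE (red squares) and GAS (blue triangles) letters in 33 promoter entries of 29 interferon-stimulated genes. The horizontal axis gives the first base of each match in bases from the transcript start, which is the black line. Genes with several starts have an entry each. The ISRE matches of Isg15 lie at −78, −72 and −66 bases from the start, and that of Stat2 at −222.

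Depth was estimated at 24.25 to 28.25 M fragments per library from the spacing of low FPKM values, and 11490 to 12612 genes reached an FPKM of 1. The defining cardiomyocyte genes Myh6, Tnnt2, Tnni3 and Actc1 were at 2315 FPKM or more in every library. Libraries labelled Sham 3 and I/R 3 stood apart from their groups. The library nearest to I/R 3 was Sham 2 (r across genes of 0.982), and that nearest to Sham 3 was I/R+B12 1 (0.969). I/R+B12 1 and I/R+B12 3 were also nearest to a library of another group, I/R 1 (0.979) and Sham 3 (0.955). Summed FPKM of 7 neutrophil markers was 731, 1952 and 97.8 FPKM in I/R+B12 libraries, 1239, 1199 and 15.04 in I/R libraries, 1.09, 35.7 and 6.33 in Sham+B12 libraries and 6.74, 11.5 and 64.4 in Sham libraries. I/R 3 was thus within the Sham range, and Sham 3 above both other Sham libraries. Labels were kept as given, and counts are also given without Sham 3 and I/R 3 and, where it changes the calls, without I/R+B12 1.

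Taken over 38 genes that passed the filter for testing (at least 3 libraries reaching an FPKM of 1; Oas3 did not), the interferon-stimulated genes stood highest in I/R hearts. A score, the mean of log2(FPKM + 1) after centring each gene over the 12 libraries, was −0.05, −0.02 and −0.44 in I/R+B12 libraries, 0.51, 0.55 and 0.45 in I/R libraries, −0.30, −0.04 and −0.19 in Sham+B12 libraries and −0.10, 0.16 and −0.56 in Sham libraries. The 3 I/R libraries lay above the other 9, and the other groups overlapped each other. Group means were −0.17 ± 0.23 in I/R+B12, 0.51 ± 0.05 in I/R, −0.17 ± 0.13 in Sham+B12 and −0.16 ± 0.36 in Sham (SD, n = 3 each). Of these 38 genes, 34 had their highest library in the I/R group, against 40.5% of all tested genes. The lowest library was Sham 3 for 19 (5.69% of all genes) and I/R+B12 3 for 10 (15.7%). I/R 3 exceeded every Sham library in 32 of 38, against 31.5% of all genes, and Sham 3 was below both other Sham libraries in 34, against 36.6%. The part of neutrophil content in the score was not tested.

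**Figure D2:**
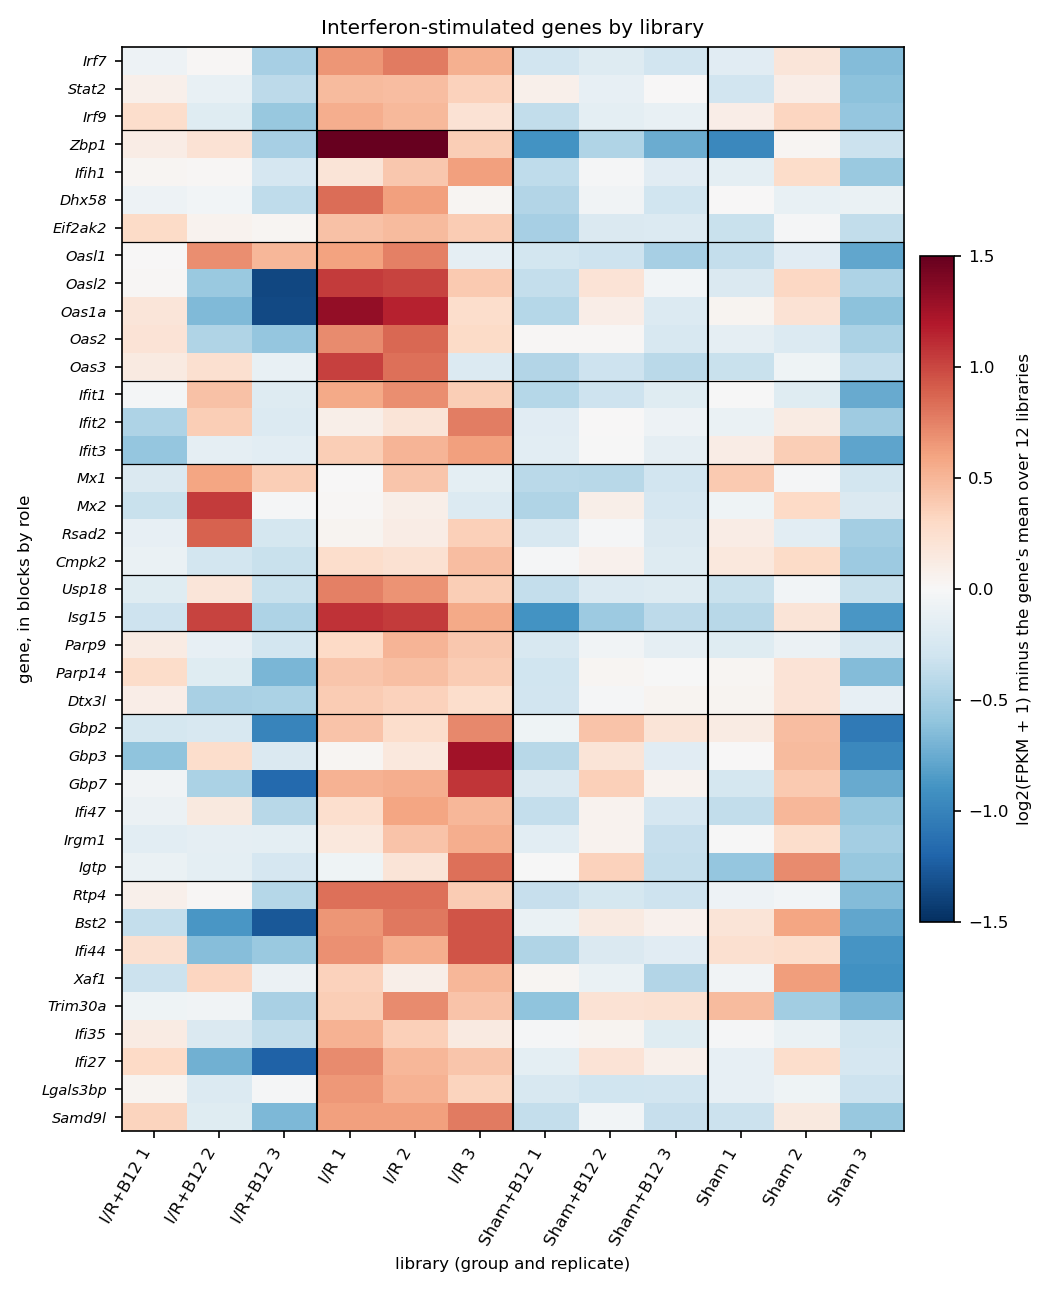
Heat map of 39 interferon-stimulated genes (rows, in blocks by role) in 12 libraries (columns, by group). Colour is log2(FPKM + 1) minus the gene's mean over the 12 libraries, red above and blue below, cut at 1.5. The 3 I/R columns are red in nearly every row, Sham 3 and I/R+B12 3 are mostly blue, and I/R+B12 2 is red in Isg15, Rsad2, Mx1, Mx2 and Oasl1.

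**Figure D3:**
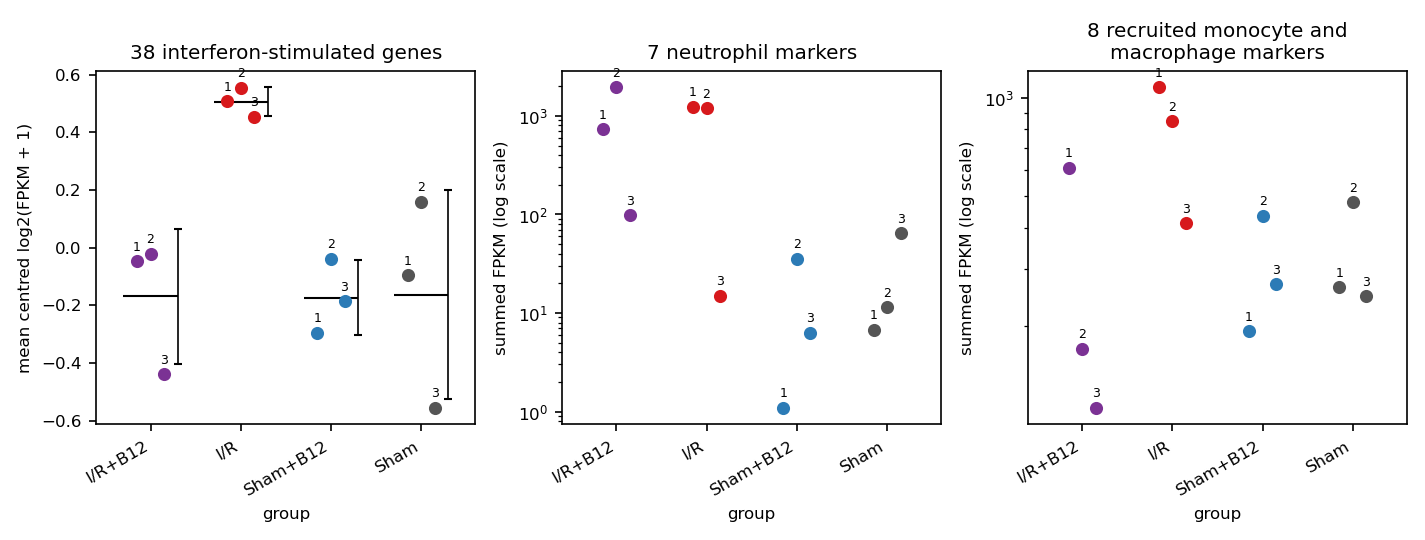
Score of 38 interferon-stimulated genes (left, mean centred log2(FPKM + 1)), summed FPKM of 7 neutrophil markers (middle, log scale) and of 8 recruited monocyte and macrophage markers (right, log scale), each point a library with its replicate number. Black lines in the left panel are group means with SD of 3 libraries. I/R 3 scores 0.45 on the left, beside I/R 1 and 2, and its neutrophil sum of 15.04 FPKM lies with the Sham groups.

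Does ischemia/reperfusion on normal water move these genes? In limma with Benjamini-Hochberg adjustment over all genes, none of 38 was called at an adjusted p under 0.05, and 0.0% of all 13001 tested genes were (smallest adjusted p among the 38, 0.372). At an unadjusted p under 0.05, 25 of 38 were higher in I/R than in Sham, against 10.6% of all genes, and none was lower. All 3 I/R libraries exceeded all 3 Sham libraries in 24 of 38, against 18.8% of all genes. They exceeded all 9 other libraries in 21 of 38, against 4.77% of all genes. The median log2 difference was 0.64, against 0.13 over all genes, and 37 of 38 differences were positive, ranging from −0.04 (Mx2) to 1.60 (Zbp1). Relative to the median of all genes the members' median was thus 0.51 higher, and 0.50 higher with median-ratio scaling, which moved all genes by −0.13 and left 36 differences positive, since that of Mx1 turned negative. With both doubtful libraries (Sham 3 and I/R 3) left out, Zbp1 was called (2.05, adjusted p 0.0485, with 0.428% of all genes called), 16 genes reached an unadjusted p under 0.05 (17.6% of all genes in either direction), and the median was 0.49. In 25 of 38 genes both remaining I/R libraries then exceeded both Sham libraries, but so did 47.2% of all genes. With estimated library weights 26 were called, along with 33.9% of all genes.

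Does B12 move them in injured hearts? This comparison shares the I/R libraries with the last one, so the 2 sets of differences are not independent. None of 38 was called, nor was any of all genes (0.0%), with a smallest adjusted p of 0.0739. At an unadjusted p under 0.05, 27 of 38 were lower in I/R+B12 than in I/R and none was higher, against 24.6% of all genes lower. With median-ratio scaling 16 reached that p (25.5% of all genes in either direction), and with quantile normalization 17 (23.1%). All 3 I/R+B12 libraries lay below all 3 I/R libraries in 28 of 38, against 18.8% of all genes. The median difference was −0.61, against −0.21 over all genes, and 36 of 38 were negative, ranging from −1.64 (Bst2) to 0.27 (Mx2). The members' median was 0.41 below that of all genes, both as deposited and with median-ratio scaling, which moved all genes by 0.21 and turned Rsad2 and Oasl1 positive. Leaving out I/R+B12 1 changed the calls: 20 of 38 were then called, all lower, as were 34.2% of all genes in either direction. Library weights called 27, and 33.3% of all genes. Without Sham 3 and I/R 3, 26 of 38 reached an unadjusted p under 0.05 (23.9% of all genes), and 31 had all I/R+B12 libraries below both I/R libraries (30.6%). I/R was above the other libraries in 24 of 38 genes then, against 15.8%.

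**Figure D4:**
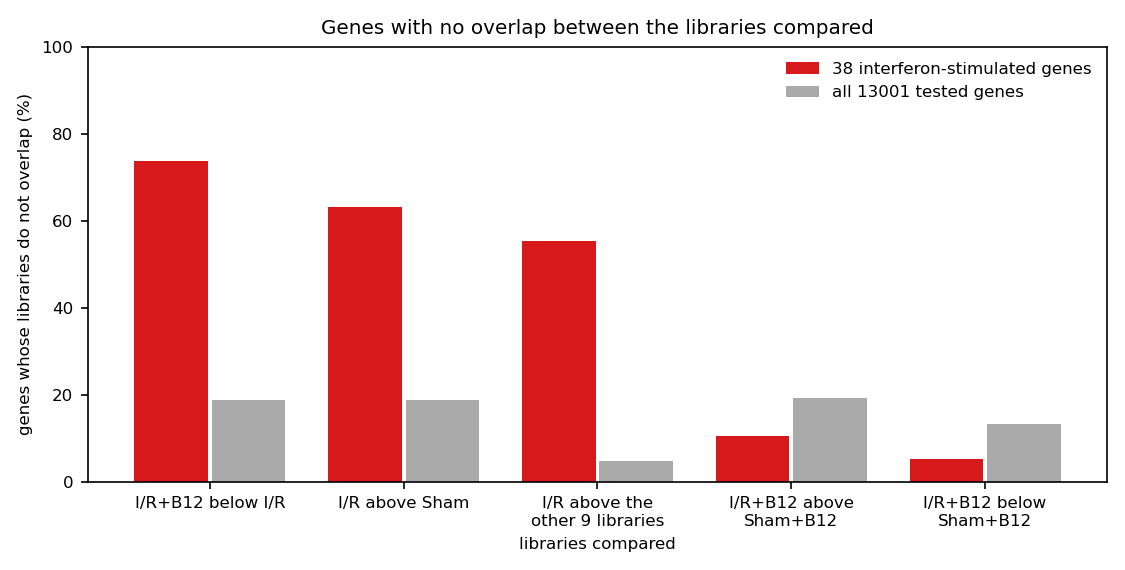
Share of genes whose libraries do not overlap in the comparison named below each pair of bars, among 38 interferon-stimulated genes (red) and all 13001 tested genes (grey), in percent. Members exceed all genes in the 3 comparisons that involve I/R on normal water (28, 24 and 21 of 38) and lie below all genes in those of I/R+B12 with Sham+B12 (4 and 2 of 38).

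Sums of cell type markers differed between the same groups. Summed FPKM of 8 recruited monocyte and macrophage markers was 611, 170.3 and 112 FPKM in I/R+B12 libraries, 1077, 848 and 413 in I/R libraries, 193, 436 and 269 in Sham+B12 libraries and 263, 479 and 247 in Sham libraries. I/R+B12 2 and 3 had the lowest sums of all. Lyz2 was the largest part of the sum in every library, with 257 of 263 FPKM in Sham 1 and 99.7 of 112 in I/R+B12 3. From Sham+B12 to I/R+B12 the log2 difference of Lyz2 was −0.98, but the median over the 8 markers was 1.43. At an unadjusted p under 0.05, 2 of them were higher there and 0 lower, against 17.3% of all genes higher and 15.0% lower. The sum of 9 resident macrophage markers was 345, 158 and 224 FPKM in I/R+B12 libraries, 492, 459.6 and 406 in I/R libraries, 317, 413 and 336 in Sham+B12 libraries and 372, 452 and 256 in Sham libraries. Fibroblast markers (7 genes) summed to 443, 360.1 and 408 FPKM in I/R+B12 libraries, 813, 768 and 815 in I/R libraries, 428, 547 and 543 in Sham+B12 libraries and 528, 801 and 634 in Sham libraries. All 3 I/R+B12 libraries were below all 3 I/R libraries in the fibroblast and resident macrophage sums, and in the recruited sum only I/R+B12 1 exceeded I/R 3. At an unadjusted p under 0.05, 7 of 9 resident macrophage, 6 of 7 fibroblast and 4 of 8 recruited markers were lower in I/R+B12 than in I/R. Of all genes, 24.6% were lower at that p, and none of these markers was called. The sum of 6 endothelial markers did not share this. It was 1512, 2054 and 1175 FPKM in I/R+B12 libraries and 1279.5, 1282 and 1402 in I/R libraries. In Sham+B12 libraries it was 908, 1449 and 1082, and in Sham libraries 1171, 1215 and 1145. I/R+B12 overlapped I/R in that sum. Fabp4 was its largest part in every library, with 1595 of 2054 FPKM in I/R+B12 2 and 889 of 1279.5 in I/R 1. The sum thus mostly follows Fabp4. Of these 6 genes, the junction genes Pecam1 (0.45, adjusted p 0.0919) and Cldn5 (1.05, adjusted p 0.0873) were higher in I/R+B12 than in I/R at an unadjusted p under 0.05, and 1 was lower, Kdr (−0.54, adjusted p 0.115). In that comparison 3.90% of all genes were higher and 24.6% lower at that p. Short of it, Tie1 (−0.36) was lower, and Fabp4 (0.21) and Cdh5 (0.04) were higher. Relative to Sham+B12, 2 of these 6 were called higher in I/R+B12, against 6.78% of all genes, and 0 lower. They were Pecam1 (0.63, adjusted p 0.0259) and Cldn5 (1.35, adjusted p 0.0265). Kdr (−0.30) and Tie1 (−0.18) had negative differences there, and Cdh5 (0.27) and Fabp4 (0.44) positive ones, none of them called. Markers of plasmacytoid dendritic cells, known producers of type I interferon, summed to at most 1.0 FPKM in any library, and those of T and NK cells to at most 5.7. The part of these cell types in the result was not tested. In bulk tissue, fewer cells of a type and less RNA per cell cannot be told apart.

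Transcription factors come first by role. Irf7, which amplifies interferon production (ENSMUSG00000025498, chromosome 7, 141262706 to 141266481, mm10), was at 12.4, 13.4 and 9.09 FPKM in I/R+B12 libraries, 21.5, 23.4 and 19.5 in I/R libraries, 10.6, 11.4 and 10.6 in Sham+B12 libraries and 11.7, 15.1 and 8.07 in Sham libraries. Every I/R library lay above the other 9. The log2 difference was −0.84 (SE 0.20, adjusted p 0.0788) for I/R+B12 against I/R and 0.87 (SE 0.20, adjusted p 0.378) for I/R against Sham. Stat2, the ISGF3 subunit specific to type I and III interferon, was at 7.1, 6.09 and 4.82 FPKM in I/R+B12 libraries, 9.62, 9.57 and 8.75 in I/R libraries, 7.08, 6.01 and 6.67 in Sham+B12 libraries and 5.26, 7.24 and 4 in Sham libraries. Again all I/R libraries were highest. Its difference was −0.57 (SE 0.19, adjusted p 0.1) for I/R+B12 against I/R, 0.70 (SE 0.19, adjusted p 0.378) for I/R against Sham and 0.25 (SE 0.19, adjusted p 0.999) for Sham+B12 against Sham. Irf9, its DNA-binding partner, averaged 8.603 ± 2.78 FPKM in I/R+B12, 13.02 ± 1.67 in I/R, 8.08 ± 0.86 in Sham+B12 and 9.42 ± 3.13 in Sham (SD, n = 3 each), and I/R overlapped I/R+B12 and Sham.

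Among the nucleic acid sensors, Zbp1 had the largest difference of I/R from Sham of all 38 genes. It is a sensor of Z-form nucleic acid that can start necroptosis (ENSMUSG00000027514, chromosome 2, 173206612 to 173218923, mm10), and was at 3.31, 3.66 and 1.82 FPKM in I/R+B12 libraries, 10.4, 11.6 and 4.17 in I/R libraries, 1.15, 1.92 and 1.39 in Sham+B12 libraries and 1.04, 3.09 and 2.19 in Sham libraries. I/R 1 and I/R 2 stood far above the rest, and I/R 3 was the third highest. The difference was 1.60 (SE 0.35, adjusted p 0.378) for I/R against Sham and −1.23 (SE 0.35, adjusted p 0.0903) for I/R+B12 against I/R. Dhx58 (LGP2), a regulator of RNA sensing, was at 1.64, 1.72 and 1.15 FPKM in I/R+B12 libraries, 4, 3.26 and 1.84 in I/R libraries, 1.06, 1.69 and 1.27 in Sham+B12 libraries and 1.8, 1.58 and 1.61 in Sham libraries, with I/R 3 just above the highest Sham library. Its difference was 0.56 (SE 0.21, adjusted p 0.4) for I/R against Sham and −0.19 (SE 0.21, adjusted p 0.999) for Sham+B12 against Sham. Eif2ak2 (PKR), the kinase that halts translation when it binds double-stranded RNA, was at 3.65, 2.97 and 2.89 FPKM in I/R+B12 libraries, 4.17, 4.29 and 3.97 in I/R libraries, 1.7, 2.28 and 2.3 in Sham+B12 libraries and 2.02, 2.77 and 1.96 in Sham libraries. Here I/R+B12 libraries were above every Sham+B12 library, and I/R libraries were above all others. The difference was 0.43 (SE 0.15, adjusted p 0.081) for I/R+B12 against Sham+B12 and 0.67 (SE 0.15, adjusted p 0.378) for I/R against Sham. Ifih1 (MDA5), a cytosolic sensor of long double-stranded RNA, ranged from 1.72 to 2.3 FPKM in I/R+B12, 2.7 to 3.97 in I/R, 1.5 to 2.2 in Sham+B12 and 1.2 to 2.94 in Sham. Its I/R+B12 libraries lay below all I/R libraries, and I/R overlapped Sham.

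Oligoadenylate synthetases make the second messenger that activates RNase L when they meet double-stranded RNA. Oasl2, an interferon-induced family member, was at 7.25, 4.52 and 2.15 FPKM in I/R+B12 libraries, 15.8, 15.4 and 9.65 in I/R libraries, 5.33, 8.35 and 6.9 in Sham+B12 libraries and 6.01, 9.07 and 4.91 in Sham libraries. All I/R libraries were above the other 9, and I/R+B12 3 was the lowest of all. The difference was −1.45 (SE 0.33, adjusted p 0.0788) for I/R+B12 against I/R and 0.94 (SE 0.33, adjusted p 0.392) for I/R against Sham. Oas1a was at 4.9, 2.28 and 1.04 FPKM in I/R+B12 libraries, 11.9, 10.6 and 5.24 in I/R libraries, 2.86, 4.59 and 3.52 in Sham+B12 libraries and 4.34, 5.04 and 2.4 in Sham libraries, in the same order, with differences of −1.52 (SE 0.39, adjusted p 0.0836) and 1.03 (SE 0.39, adjusted p 0.4) in these comparisons. Oas2 was at 2.67, 1.33 and 1.14 FPKM in I/R+B12 libraries, 4.21, 4.81 and 2.9 in I/R libraries, 2.24, 2.24 and 1.7 in Sham+B12 libraries and 1.9, 1.77 and 1.29 in Sham libraries. I/R libraries were again highest. Its interaction, the difference of I/R+B12 from Sham+B12 less that of I/R from Sham, was −1.10 (SE 0.32, adjusted p 0.387). Oas3 was not tested and was at 0.54, 0.65 and 0.29 FPKM in I/R+B12 libraries, 1.85, 1.47 and 0.21 in I/R libraries, 0.03, 0.13 and 0.06 in Sham+B12 libraries and 0.11, 0.34 and 0.09 in Sham libraries. It exceeded an FPKM of 1 in I/R 1 and I/R 2 only, and I/R 3 was at the Sham level. Oasl1, which in mice blocks translation of Irf7 mRNA, differed from these and was at 2.1, 4.01 and 3.39 FPKM in I/R+B12 libraries, 3.71, 4.22 and 1.82 in I/R libraries, 1.56, 1.49 and 1.19 in Sham+B12 libraries and 1.41, 1.75 and 0.8 in Sham libraries. All I/R+B12 libraries were above all Sham+B12 libraries, with a difference of 0.76 (SE 0.26, adjusted p 0.0776), while I/R+B12 and I/R overlapped (−0.01, and positive with median-ratio or quantile scaling). Reads of Oas1a and its near copies, such as Oas1g, can be split between them.

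Isg15, a ubiquitin-like modifier (ENSMUSG00000035692, chromosome 4, 156199424 to 156200818, mm10), was at 13.2, 34.7 and 11.8 FPKM in I/R+B12 libraries, 36.7, 35.6 and 25.2 in I/R libraries, 8.54, 11.1 and 12.5 in Sham+B12 libraries and 12.3, 19.2 and 8.71 in Sham libraries. I/R+B12 2 stood beside I/R 1 and I/R 2, while the other I/R+B12 libraries were within the Sham range. The difference was 1.26 (SE 0.37, adjusted p 0.378) for I/R against Sham and −0.82 (SE 0.37, adjusted p 0.172) for I/R+B12 against I/R. Usp18, the protease that removes Isg15 and also dampens receptor signalling, was at 2.9, 4.02 and 2.5 FPKM in I/R+B12 libraries, 6.5, 6.09 and 4.71 in I/R libraries, 2.46, 2.85 and 2.86 in Sham+B12 libraries and 2.51, 3.29 and 2.52 in Sham libraries. No I/R+B12 library reached the lowest I/R library. The difference was 0.84 (SE 0.17, adjusted p 0.378) for I/R against Sham and −0.72 (SE 0.17, adjusted p 0.0788) for I/R+B12 against I/R.

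The IFIT proteins bind foreign RNA and hold back its translation. Ifit3 was at 7.64, 10.8 and 10.6 FPKM in I/R+B12 libraries, 15.7, 17.5 and 18.9 in I/R libraries, 10.6, 11.96 and 10.8 in Sham+B12 libraries and 12.97, 15.7 and 6.49 in Sham libraries. I/R was above all others by a small margin, with Sham 2 just below I/R 1. Ifit1 ranged from 2.66 to 4.65 FPKM in I/R+B12, 4.4 to 5.8 in I/R, 2.1 to 2.7 in Sham+B12 and 1.48 to 3.17 in Sham. Its I/R libraries were above Sham, with a difference of 0.86 (SE 0.22, adjusted p 0.378), and I/R+B12 2 lay within the I/R range. Ifit2 ranged from 2.86 to 5.91 FPKM in I/R+B12, 4.68 to 8.1 in I/R, 3.73 to 4.37 in Sham+B12 and 2.7 to 4.82 in Sham, with overlap. The 3 genes lie side by side on chromosome 19 (34550694 to 34650009, mm10), and reads of Ifit3 can be shared with its near copy Ifit3b.

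With all libraries in the fit, the Mx genes and viperin, like Oasl1, did not follow the lower level of most members in I/R+B12 than in I/R. For viperin and Mx2 this rested on I/R+B12 2. Mx1, a GTPase that in mice acts on influenza virus in the nucleus (ENSMUSG00000000386, chromosome 16, 97447035 to 97462907, mm10), was at 0.32, 1.31 and 0.99 FPKM in I/R+B12 libraries, 0.54, 1.06 and 0.39 in I/R libraries, 0.16, 0.15 and 0.26 in Sham+B12 libraries and 1.02, 0.52 and 0.27 in Sham libraries. I/R+B12 libraries were above all Sham+B12 libraries, Sham+B12 libraries were below all Sham libraries, and I/R and Sham overlapped. The difference was 0.62 (SE 0.25, adjusted p 0.117) for I/R+B12 against Sham+B12 and −0.40 (SE 0.25, adjusted p 0.999) for Sham+B12 against Sham. These levels rest on about 40 estimated fragments in the median library, so counting error weighs on them. Mx2 was at 0.55, 3.05 and 0.93 FPKM in I/R+B12 libraries, 0.97, 1.07 and 0.69 in I/R libraries, 0.43, 1.07 and 0.64 in Sham+B12 libraries and 0.86, 1.4 and 0.68 in Sham libraries, with I/R+B12 2 far above the other 11 libraries. Its difference was −0.04 (SE 0.31, adjusted p 0.971) for I/R against Sham and 0.27 (SE 0.31, adjusted p 0.586) for I/R+B12 against I/R. The gene annotation lists Mx2 as a polymorphic pseudogene. Rsad2 (viperin), which makes a chain-terminating nucleotide, was at 6.91, 14.9 and 6.15 FPKM in I/R+B12 libraries, 7.84, 8.31 and 10.01 in I/R libraries, 6.28, 7.49 and 6.4 in Sham+B12 libraries and 8.31, 6.69 and 5.02 in Sham libraries. Again I/R+B12 2 was the highest library, while I/R+B12 1 and I/R+B12 3 were below every I/R library. Without I/R+B12 2, the difference of I/R+B12 from I/R was −0.36 for Rsad2 and −0.14 for Mx2. Mx1 no longer passed the filter then and was not tested. The neighbour of Rsad2 on chromosome 12, the nucleotide kinase gene Cmpk2, did not share the high value in I/R+B12 2. Cmpk2 ranged from 2.96 to 3.66 FPKM in I/R+B12, 4.87 to 5.86 in I/R, 3.35 to 4.23 in Sham+B12 and 2.42 to 5.1 in Sham, and its I/R+B12 libraries were all below I/R, with a difference of −0.56 (SE 0.20, adjusted p 0.118).

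**Figure D5:**
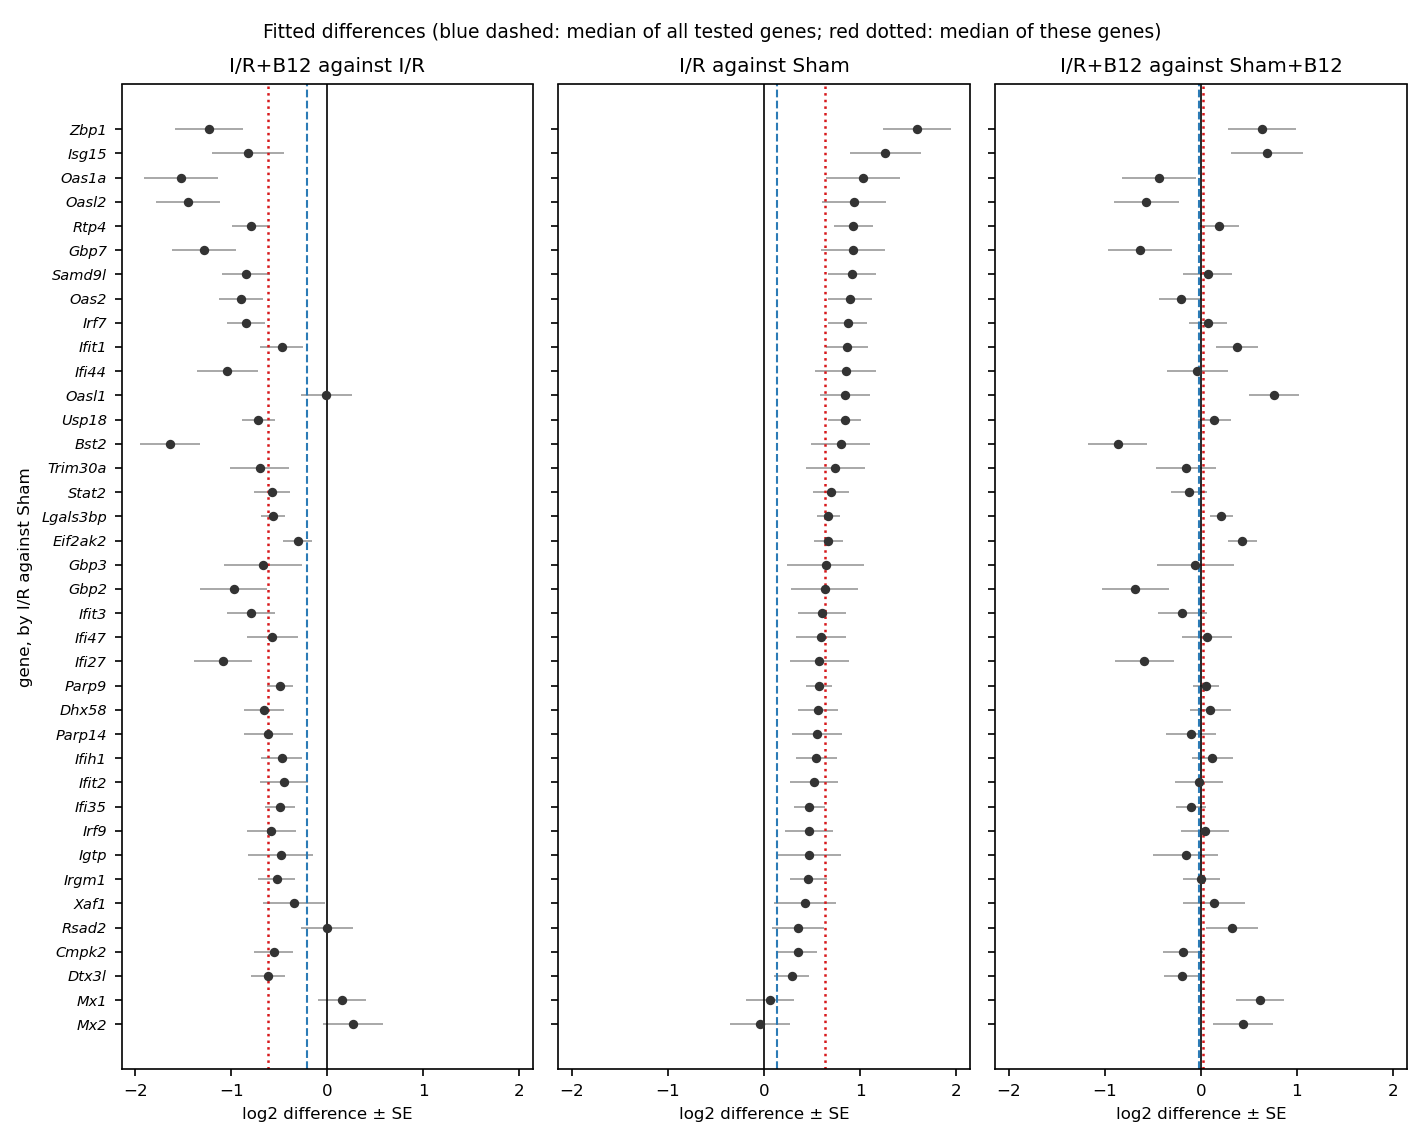
Fitted log2 differences with standard errors for 38 interferon-stimulated genes in 3 comparisons, genes sorted by I/R against Sham. The blue dashed line is the median of all tested genes and the red dotted line that of the members. Points lie left of 0 in I/R+B12 against I/R (median −0.61), right of 0 in I/R against Sham (0.64) and on both sides in I/R+B12 against Sham+B12 (0.03), with Mx1 and Mx2 right of 0 in the left panel and Mx2 left of 0 in the middle one. With median-ratio scaling Rsad2 and Oasl1 also turn positive in the left panel, and Mx1 negative in the middle one. The left and middle panels share the I/R libraries.

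Parp9 and Dtx3l encode a complex of a macro-domain protein and a ubiquitin ligase, and Parp14 an ADP-ribosyltransferase. Their genes adjoin on chromosome 16 (35832874 to 35972605, mm10). Parp9 was at 6.55, 5.35 and 4.75 FPKM in I/R+B12 libraries, 7.53, 8.83 and 8.18 in I/R libraries, 4.88, 5.71 and 5.29 in Sham+B12 libraries and 5.12, 5.53 and 4.85 in Sham libraries. I/R libraries were above all others, with a difference of 0.57 (SE 0.14, adjusted p 0.378) for I/R against Sham and −0.49 (SE 0.14, adjusted p 0.0885) for I/R+B12 against I/R. Dtx3l ranged from 2.42 to 4.12 FPKM in I/R+B12, 4.75 to 5.22 in I/R, 2.92 to 3.94 in Sham+B12 and 3.38 to 4.52 in Sham. Parp14 ranged from 2.94 to 6.68 FPKM in I/R+B12, 7.22 to 7.68 in I/R, 4.16 to 5.47 in Sham+B12 and 3.03 to 6.31 in Sham. In both, I/R libraries were above the other 9. Exons of Parp9 and Dtx3l overlap by 458 bases on opposite strands, and strand is not stated for the counting, so reads there cannot be told apart.

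Guanylate-binding proteins and immunity-related GTPases answer mainly to interferon gamma and attack the vacuoles of intracellular pathogens. Of their 6 genes, 5 had their highest library in I/R 3. Over all 39 members it was the highest for 12, against 13 for I/R 1 and 10 for I/R 2. Members of other roles, such as Bst2, Ifit3 and Samd9l, were thus highest there too. Gbp2 was at 9.81, 9.95 and 5.5 FPKM in I/R+B12 libraries, 16.4, 14.6 and 20.4 in I/R libraries, 11.4, 16.5 and 13.8 in Sham+B12 libraries and 13.1, 16.8 and 5.18 in Sham libraries. All I/R+B12 libraries were below all Sham+B12 and all I/R libraries. The difference was −0.97 (SE 0.35, adjusted p 0.114) for I/R+B12 against I/R, −0.68 (SE 0.35, adjusted p 0.198) for I/R+B12 against Sham+B12 and 0.35 (SE 0.35, adjusted p 0.999) for Sham+B12 against Sham, the last turning to −0.11 without Sham 3. Gbp7 was at 2.55, 1.66 and 0.64 FPKM in I/R+B12 libraries, 4.32, 4.4 and 6.74 in I/R libraries, 2.19, 3.73 and 2.83 in Sham+B12 libraries and 2.07, 3.83 and 1.19 in Sham libraries, with I/R above all others and an interaction of −1.56 (SE 0.47, adjusted p 0.387). Gbp3 was at 2.83, 6.01 and 4.02 FPKM in I/R+B12 libraries, 4.95, 5.49 and 12.96 in I/R libraries, 3.37, 5.69 and 4.19 in Sham+B12 libraries and 4.86, 7.1 and 1.99 in Sham libraries. I/R 3 had more than any other library, and I/R 1 and I/R 2 were below Sham 2. Igtp (Irgm3) ranged from 9.09 to 10.2 FPKM in I/R+B12, 10.5 to 20.3 in I/R, 8.38 to 14.3 in Sham+B12 and 7.07 to 18.6 in Sham. Irgm1, a regulator of the other family members, ranged from 11.2 to 11.4 FPKM in I/R+B12, 14.2 to 18.9 in I/R, 9.75 to 13.1 in Sham+B12 and 8.53 to 15.4 in Sham. Ifi47 ranged from 2.27 to 3.86 FPKM in I/R+B12, 4.22 to 5.61 in I/R, 2.41 to 3.55 in Sham+B12 and 1.96 to 5.2 in Sham. In all 3, the I/R+B12 libraries lay below every I/R library and Sham 2 lay within the I/R range. Exons of Igtp and its neighbour Irgm2 share 162 bases on the same strand, so reads there can count for either. I/R 3 was also the one library with more than 0.1 FPKM of Ifng, the gene of interferon gamma, at 0.97. The part of Ifng in these levels was not tested.

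Bst2 (tetherin), which holds budding virus on the cell surface (ENSMUSG00000046718, chromosome 8, 71534255 to 71537456, mm10), had the smallest p of I/R+B12 against I/R and was at 36.1, 25.1 and 18.7 FPKM in I/R+B12 libraries, 74.5, 81.5 and 90.9 in I/R libraries, 43.4, 51.2 and 48.9 in Sham+B12 libraries and 53.4, 70.9 and 26.8 in Sham libraries. I/R libraries were above all others, and I/R+B12 libraries were below all but Sham 3. The difference was −1.64 (SE 0.31, adjusted p 0.0739) for I/R+B12 against I/R, −0.87 (SE 0.31, adjusted p 0.0845) for I/R+B12 against Sham+B12 and 0.80 (SE 0.31, adjusted p 0.408) for I/R against Sham. Its interaction was −1.67 (SE 0.44, adjusted p 0.387). Lgals3bp, a secreted glycoprotein that binds galectins (ENSMUSG00000033880, chromosome 11, 118392751 to 118402092, mm10), was at 35.7, 30.1 and 34.5 FPKM in I/R+B12 libraries, 55.4, 50.4 and 43.9 in I/R libraries, 29.2, 28.1 and 28.4 in Sham+B12 libraries and 31.7, 33.3 and 27.8 in Sham libraries. I/R libraries were above all others, I/R+B12 libraries were above all Sham+B12 libraries, and Sham 3 had the lowest value. Its difference was 0.67 (SE 0.12, adjusted p 0.372) for I/R against Sham and −0.56 (SE 0.12, adjusted p 0.0779) for I/R+B12 against I/R. Rtp4, an interferon-induced chaperone of membrane receptors, was at 11.7, 11.2 and 7.93 FPKM in I/R+B12 libraries, 20.4, 20.3 and 14.7 in I/R libraries, 8.46, 8.99 and 8.74 in Sham+B12 libraries and 10.4, 10.7 and 6.7 in Sham libraries. I/R was highest and its difference was 0.93 (SE 0.20, adjusted p 0.378) for I/R against Sham.

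Among the remaining effectors, Ifi27, a small mitochondrial protein, ranged from 12.1 to 36.3 FPKM in I/R+B12, 39.5 to 48.8 in I/R, 26.5 to 34.1 in Sham+B12 and 24.6 to 35.5 in Sham. Ifi35 ranged from 12.1 to 17.3 FPKM in I/R+B12, 17.6 to 23.2 in I/R, 13.8 to 16.4 in Sham+B12 and 12.9 to 15.6 in Sham. Ifi44 ranged from 0.64 to 2.02 FPKM in I/R+B12, 2.71 to 3.9 in I/R, 0.87 to 1.27 in Sham+B12 and 0.38 to 2.05 in Sham. In all 3 the I/R libraries were above the other 9. Samd9l, which restrains translation, did the same and averaged 2.13 ± 1.09 FPKM in I/R+B12, 4.41 ± 0.35 in I/R, 1.88 ± 0.37 in Sham+B12 and 1.92 ± 0.76 in Sham (SD, n = 3 each). Trim30a ranged from 3.55 to 5.17 FPKM in I/R+B12, 7.23 to 9.42 in I/R, 3.22 to 6.52 in Sham+B12 and 2.99 to 7.88 in Sham. Xaf1, a partner of the apoptosis inhibitor XIAP, ranged from 12.5 to 20.3 FPKM in I/R+B12, 17.1 to 22.99 in I/R, 11.5 to 16.4 in Sham+B12 and 8.05 to 25.1 in Sham. For both, I/R overlapped Sham, and for Xaf1 it overlapped I/R+B12 too. Reads of Trim30a can be shared with near copies such as Trim30d.

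Between I/R+B12 and Sham+B12, where 10.4% of all genes were called, none of the 38 was, with a smallest adjusted p of 0.0776. At an unadjusted p under 0.05, Oasl1, Eif2ak2 and Mx1 were higher, against 17.3% of all genes, and Bst2 was lower, against 15.0%. I/R+B12 libraries were above all Sham+B12 libraries in 4 of 38 (Oasl1, Mx1, Eif2ak2 and Lgals3bp), against 19.1% of all genes. They were below in 2 (Bst2 and Gbp2), against 13.2%. The median difference was 0.03, against −0.02 over all genes, with 20 positive and 18 negative. Without Sham 3 and I/R 3 Bst2 and Oasl1 were called (13.0% of all genes). Without I/R+B12 1, Ifi27, Bst2, Oasl1 and Mx1 were called, against 29.7% of all genes.

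Between Sham+B12 and Sham, none was called (0.0% of all genes) and none reached an unadjusted p under 0.05, against 0.508% of all genes higher and 1.18% lower. The median difference was −0.01 (−0.07 over all genes), and −0.21 without Sham 3. Of the 38 differences 19 were positive and 19 negative, against 28 and 10 with median-ratio scaling. Mx1 alone had all Sham+B12 libraries below all Sham libraries, against 8.98% of all genes. In the interaction none was called (0.0% of all genes; smallest adjusted p 0.387). At an unadjusted p under 0.05, 16 of 38 were negative and none positive, against 8.86% of all genes negative. The count was 10 with median-ratio scaling (13.3% of all genes in either direction), and it ranged from 10 (without I/R 1 or without Sham 3) to 23 (without Sham 2) when 1 library was left out. The median interaction was −0.60, against −0.14 over all genes, and 36 of 38 were negative (34 with median-ratio scaling, where Rsad2 and Oasl1 turned positive). Without I/R+B12 1, 11 were called, all negative, against 14.3% of all genes.

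Upstream in the pathway, interferon transcripts were near the limit of detection. Of 21 interferon genes, 18 were under 0.1 FPKM in every library. Ifnb1 was listed at 0.22 FPKM in I/R+B12 2, 0.15 in Sham+B12 2 and 0 in the other 10 libraries, and Ifnz at 0.15 or less. Receptors and their kinases were expressed, with 9 of 9 tested. In I/R+B12 against Sham+B12 2 were called, against 10.4% of all genes, and none in the other comparisons. In I/R+B12 against I/R, 3 were lower at an unadjusted p under 0.05, against 24.6% of all genes, and none was higher. Jak2, which serves the interferon gamma receptor, was at 8.19, 13.2 and 6.9 FPKM in I/R+B12 libraries, 9.3, 8.67 and 6.08 in I/R libraries, 4.55, 5.48 and 4.6 in Sham+B12 libraries and 5.47, 5.32 and 4.91 in Sham libraries. It rose in I/R+B12 relative to Sham+B12 (0.78, adjusted p 0.0425). Il10rb, a shared subunit of the type III interferon and interleukin-10 family receptors, fell in the same comparison (−0.72, adjusted p 0.0454). Ifngr2 had a difference of −1.06 there (adjusted p 0.051).

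Among other transcription factors of the response, Stat3, which carries interleukin-6 signals, rose in I/R+B12 relative to Sham+B12 (1.23, adjusted p 0.0394). Irf8, an interferon-responsive factor of myeloid cells, had a difference of 0.68 (adjusted p 0.0684) there. In sensing upstream of interferon, 11 of 13 genes found were tested. In I/R against Sham 6 of 11 were higher at an unadjusted p under 0.05, against 10.6% of all genes, and none was lower. Myd88, the adaptor of Toll-like receptors (1.44, adjusted p 0.028), and Tbk1, the kinase of Irf3 (0.93, adjusted p 0.0155), rose in I/R+B12 relative to Sham+B12. Mavs, the adaptor of RNA sensors, had a difference of −1.001 (adjusted p 0.0663). Of 9 tested negative regulators, 3 were called higher in I/R+B12 than in Sham+B12, against 6.78% of all genes, and none was called lower. They were Socs3, a feedback inhibitor (4.30, adjusted p 0.0253), the phosphatase gene Ptpn2 (1.004, adjusted p 0.0294) and the DNA exonuclease gene Trex1 (0.81, adjusted p 0.0397). Sting1, the adaptor of DNA sensing, had a difference of 1.01 for I/R against Sham (adjusted p 0.392). Neutrophil sums were also higher in I/R+B12 than in Sham+B12 libraries, as given above, and their part in these calls was not tested.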

How the data were processed

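Sequencing covered 12 poly(A) RNA libraries of mouse heart, in 4 groups of 3. Expression values are FPKM as deposited by the authors, per the file headers; the submitters' processing notes name HISAT2, StringTie and mm10, with no versions given. Whether counting used strand is not given in the sources used here. The authors' 4 group-mean columns were not used. From the FPKM, log2(FPKM + 1) was fitted in limma 3.58.1 (R 4.3.3) with a variance trend over the 13001 genes that reached an FPKM of 1 in at least 3 libraries; differences are on that scale and understate changes of low genes. Tests are two-sided, with Benjamini-Hochberg adjustment over all genes in each of 5 comparisons, and a gene is called at an adjusted p under 0.05. Where a list names genes, they are those called and those with the smallest p; of the members, every one is given. The interferon-stimulated genes and all lists were chosen with earlier results of these data known. Depth was estimated from the steps of low FPKM values (81.7% to 88.9% within 0.15 of a whole fragment). Coordinates are GENCODE M21 (mm10). Alternatives covered scaling, pseudocount, filter, variance trend, library weights, replicate block, compared groups alone and libraries left out. The fit was tested on simulated data. 1 gene of the pathway lists is not reported here.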

Additional observations from a re-analysis of the deposited data

Results flagged for a closer look

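For Bst2 the 2 comparisons of ischemia/reperfusion with its sham operation ran in opposite directions on B12 water and on normal water. All 3 I/R+B12 libraries lay below all 3 Sham+B12 libraries, while all 3 I/R libraries lay above all 3 Sham libraries. The test of that difference itself, limma's interaction term, gave −1.67 on the log2 scale with an adjusted p of 0.387, so it did not pass. Over the alternatives tried, the interaction of Bst2 ranged from −1.96 to −1.20, with adjusted p from 0.0172 to 0.701.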

How the results depend on the processing

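As fitted, 0 members were called in any comparison. In I/R+B12 against Sham+B12, median-ratio scaling and quantile normalization each called 1 (Eif2ak2), with 14.8% and 13.8% of all genes called. Library weights called 5, against 23.7% of all genes. Leaving out 1 library called 0 to 4. There were 4 without I/R+B12 1 (29.7% of all genes), 1 without Sham 3 (11.2%) and 1 without I/R 3 (12%). Leaving out both Sham 3 and I/R 3 called 2 (13%). In I/R against Sham, library weights called 26 (33.9% of all genes) and leaving out both called 1 (0.428%). In I/R+B12 against I/R, library weights called 27 (33.3% of all genes). Leaving out 1 library called 0 to 20, with 20 without I/R+B12 1 (34.2%) and 1 without Sham 3 (0.525%). In the interaction, library weights called 16 (14.1% of all genes). Leaving out 1 library called 0 to 11 there, with 11 without I/R+B12 1 (14.3%). The median difference of I/R+B12 against I/R was −0.79 with library weights, −0.37 with quantile normalization and −0.41 with median-ratio scaling. Counts at an unadjusted p under 0.05 also moved. The filter at an FPKM of 5 left 23 members tested in place of 38, so its counts are out of 23. In I/R against Sham, 25 of 38 became 13 of 23 with that filter (11.6% of all genes in either direction). The count was 16 without I/R 2, 15 without Sham 3 and 16 without both Sham 3 and I/R 3. In I/R+B12 against I/R, 27 became 16 with median-ratio scaling, 17 with the filter at 5 and 17 with quantile normalization. In I/R+B12 against Sham+B12, 4 of 38 became 1 of 23 with the filter at 5. It became 9 with library weights, 11 without I/R+B12 1 and 2 without Sham+B12 1. In the interaction, 16 became 10 with median-ratio scaling and 10 to 23 with 1 library left out. Gbp2 in Sham+B12 against Sham turned to −0.11 without Sham 3, with or without I/R 3, and ranged from −0.11 to 0.66 when 1 library was left out. The cause was not tested. With the replicate block, 0 members were called in every comparison and 25 (I/R against Sham) and 28 (I/R+B12 against I/R) had unadjusted p under 0.05; the numbers did not pair the libraries, since same-numbered libraries deviated together with a mean r of 0.014 over 18 pairs. The weights did not fully converge, and the interaction was not run on the compared groups alone. Members near 1 FPKM, Mx1 above all, are limited by depth.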

Other observations

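A further list of interferon-stimulated genes outside the 39 held 79 symbols, of which 78 were found and 64 tested. In I/R against Sham its median log2 difference was 0.56 and 29 of 64 were higher at an unadjusted p under 0.05, against 10.6% of all genes, with none lower and none called. In I/R+B12 against I/R, which shares the I/R libraries, the median was −0.71, with 43 lower, against 24.6% of all genes, 1 higher and none called. Psmb9 and Psmb8, subunits of the immunoproteasome, had differences of −2.03 (adjusted p 0.0739) and −1.30 (adjusted p 0.077), and Ifi27l2a had −2.08 (adjusted p 0.0739). In I/R+B12 against Sham+B12 the median was −0.21, and 4 of 64 genes were called in limma, against 10.4% of all genes. Cxcl10, a chemokine that draws T cells, rose (1.77, adjusted p 0.0321), as did Ddx24, an RNA helicase gene (0.81, adjusted p 0.042), and Ifitm2, which blocks virus entry (1.03, adjusted p 0.0436). Psmb9 fell (−1.76, adjusted p 0.0236). It was at 6.04, 3.06 and 2.21 FPKM in I/R+B12 libraries, 14.9, 16.3 and 21.5 in I/R libraries, 12.7, 14.96 and 15.2 in Sham+B12 libraries and 13, 17.4 and 5.79 in Sham libraries. Cxcl10 was at 2.34, 11.3 and 3.8 FPKM in I/R+B12 libraries, 3.85, 5.67 and 2.93 in I/R libraries, 1.01, 0.57 and 0.59 in Sham+B12 libraries and 0.46, 2.01 and 1.04 in Sham libraries.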
